A study of Homo sapiens with 12 samples.

Results

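The clustered histone genes are the human genes whose symbols start with HIST1H, HIST2H, HIST3H or HIST4H. They were found by symbol, and 73 of the 27788 gene symbols with read counts were members: 6 linker histone H1 genes, 18 H2A, 20 H2B, 14 H3 and 15 H4 genes. By cluster, 56 carried the HIST1 name, 13 HIST2, 3 HIST3 and 1 HIST4. Members with a summed count of at least 20 in the 6 libraries of a cell line were described, which left 30 in HCT116, 40 in U-87 MG, 26 in both lines and 44 in either. A further 14 members had no count in any of the 12 libraries.

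RNA was sequenced from 4 groups of 3 libraries each: GSTO1 KO HCT116 cells, WT HCT116 cells, GSTO1 KO U-87 MG cells and WT U-87 MG cells. HCT116 is a human colorectal carcinoma line and U-87 MG a human glioblastoma line. GSTO1 encodes glutathione S-transferase omega, and the KO cells came, per the labels' protocols, from lines that stably expressed Cas9 from a lentivirus, were given a crRNA for exon 2 of the gene, and were picked as single colonies. A crRNA with no target was the control of that procedure, but the labels do not tell whether the WT cells had received it or carried Cas9, or how many colonies stand behind the KO libraries. Nothing in the labels ties the 3 libraries of a group to separate cultures, so the p-values measure the spread between libraries, which may be technical.

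Library totals ran from 17814142 to 28097179 counts. GSTO1 lay at 14.6 to 17.1 CPM (counts scaled by library size) in the HCT116 KO libraries, against 61.4 to 64.7 CPM in the HCT116 WT libraries. In U-87 MG it lay at 23.8 to 25.2 CPM in the KO libraries and 117 to 143 CPM in the WT libraries. The epithelial marker EPCAM was at 217 to 253 CPM in HCT116, whereas VIL1, a marker of the intestinal brush border, was at most 0.158 CPM there. U-87 MG cells held VIM at 6925 to 9909 CPM, but the astrocyte marker GFAP at no more than 0.132 CPM. The summed epithelial list was 3638 to 3937 CPM in HCT116 KO and 3697 to 3927 CPM in HCT116 WT libraries. By the thresholds given below, 4 of its 9 genes tested in HCT116 were higher in KO cells, beside 7.82% of all genes. These were ELF3, CDH1, ESRP1 and CLDN4, with log2 fold changes, KO over WT, of 1.05, 0.86, 0.60 and 0.95. In U-87 MG that list held 12.3 to 13.8 CPM in KO and 21.1 to 22.3 CPM in WT libraries. The leukocyte list summed to 580 to 600 CPM in U-87 MG KO and 352 to 433 CPM in U-87 MG WT libraries, of which CD68, a lysosomal protein, made 579 to 599 CPM in KO and 352 to 433 CPM in WT, and CD3E had no count in any library. RNR2, a ribosomal RNA of the mitochondrion, took 1.36 to 1.54% of counts in HCT116 KO and 0.981 to 1.06% in HCT116 WT libraries. In U-87 MG its share was 0.419 to 0.435% in KO and 0.254 to 0.322% in WT libraries.

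Clustered histone genes supply the bulk of histone protein that packages newly copied DNA, and most of them are transcribed while DNA is replicated. Their mRNAs are unusual in that they end in a short hairpin, the stem-loop, bound by the protein SLBP, and carry no poly(A) tail. Some members also make longer mRNAs that run past the stem-loop to a poly(A) signal, a form known from cells that differentiate or stop dividing. The libraries were made with an mRNA kit that captures poly(A) tails, so the values describe mainly RNA that carries a tail or was carried over.

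The stem-loop is shown for 6 members because members that moved in opposite directions carry the same or nearly the same hairpin. Sequences are from GRCh38 with the GENCODE 44 annotation, written 5′ to 3′ on the coding strand as DNA, with the 16 bases of the stem-loop in capitals. HIST2H2BE, HIST1H2BD and HIST1H2BK were higher in KO cells of both lines, HIST2H2AC and HIST1H1D were lower in U-87 MG KO cells, and HIST1H4H shows the form of an H4 gene.
HIST2H2BE: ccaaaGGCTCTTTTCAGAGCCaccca
HIST1H2BD: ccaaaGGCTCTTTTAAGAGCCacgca
HIST1H2BK: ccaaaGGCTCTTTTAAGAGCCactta
HIST2H2AC: ccaaaGGCTCTTTTTAGAGCCaccca
HIST1H1D: taaacGGCTCTTTTCAGAGCCaccca
HIST1H4H: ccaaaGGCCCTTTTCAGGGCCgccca
The capitals lie at chr1:149886188-149886203 (minus strand), chr6:26158587-26158602 (plus), chr6:27146366-27146381 (minus), chr1:149887391-149887406 (plus), chr6:26234217-26234232 (minus) and chr6:26285131-26285146 (minus), in that order. The histone stem-loop pattern, with a paired stem, was searched on the coding strand within 100 bases after the stop codon. It was found in 67 of the 70 coding members, against 71 of 19681 coding genes in all (0.361%). The form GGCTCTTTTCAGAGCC stood in 40 members, among them HIST2H2BE and HIST1H1D. The form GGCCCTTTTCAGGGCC stood in 10 members, all of them H4 genes, and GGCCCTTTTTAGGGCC in 4, also all H4 genes. Of the 70 coding members, 15 had an annotated longer 3′ end that closed with a poly(A) signal (AATAAA or ATTAAA in its last 40 bases), and 14 of these had the stem-loop as well. The 15th was HIST1H3E, which had no match to the pattern.

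RNA of the clustered histone genes was scarce, and 2 members held much of it. All members together took 59.9, 61.8 and 66.1 CPM, here unscaled by TMM, in the HCT116 KO libraries, against 41.8, 39.8 and 40.5 in the HCT116 WT libraries. In U-87 MG they took 122, 126 and 127 CPM in the KO libraries, against 75.7, 74.1 and 69.9 in the WT libraries. The KO libraries lay above the WT libraries in both lines, with no overlap. The 5 members with the most counts, led by HIST1H2BK and HIST1H1C, held 70.8% of member counts in HCT116 and 79.9% in U-87 MG.

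Levels between genes were compared in FPKM, the deposited unit that divides by gene length and depth. Over the 6 libraries of HCT116 the highest mean levels were 19.3 FPKM for HIST1H2BK, 10.98 FPKM for HIST1H1C, 7.78 FPKM for HIST1H2BD, 7.44 FPKM for HIST3H2A and 4.91 FPKM for HIST1H2AC. Over those of U-87 MG they were 51.1 FPKM for HIST1H2BK, 34.6 FPKM for HIST1H1C, 22.1 FPKM for HIST2H2AA4, 10.5 FPKM for HIST1H2AC and 9.82 FPKM for HIST1H2BD. HIST1H2BK ranked above HIST1H1C without overlap of their 6 values in HCT116 (15.6 to 24.8 FPKM against 8.61 to 14.1 FPKM), whereas HIST1H2BD and HIST3H2A overlapped. In U-87 MG the ranges of HIST1H2BK (32.5 to 71.1 FPKM) and HIST1H1C (27.9 to 39.4 FPKM) overlapped. Most members were far lower: of the 70 with an FPKM value, 18 in HCT116 and 22 in U-87 MG had a mean above 1 FPKM. Per kilobase of annotated exon, the counts put HIST1H2BK and HIST1H1C in the same places, and HIST2H2AA4, which had no counts, near the bottom.

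**Figure D1:**
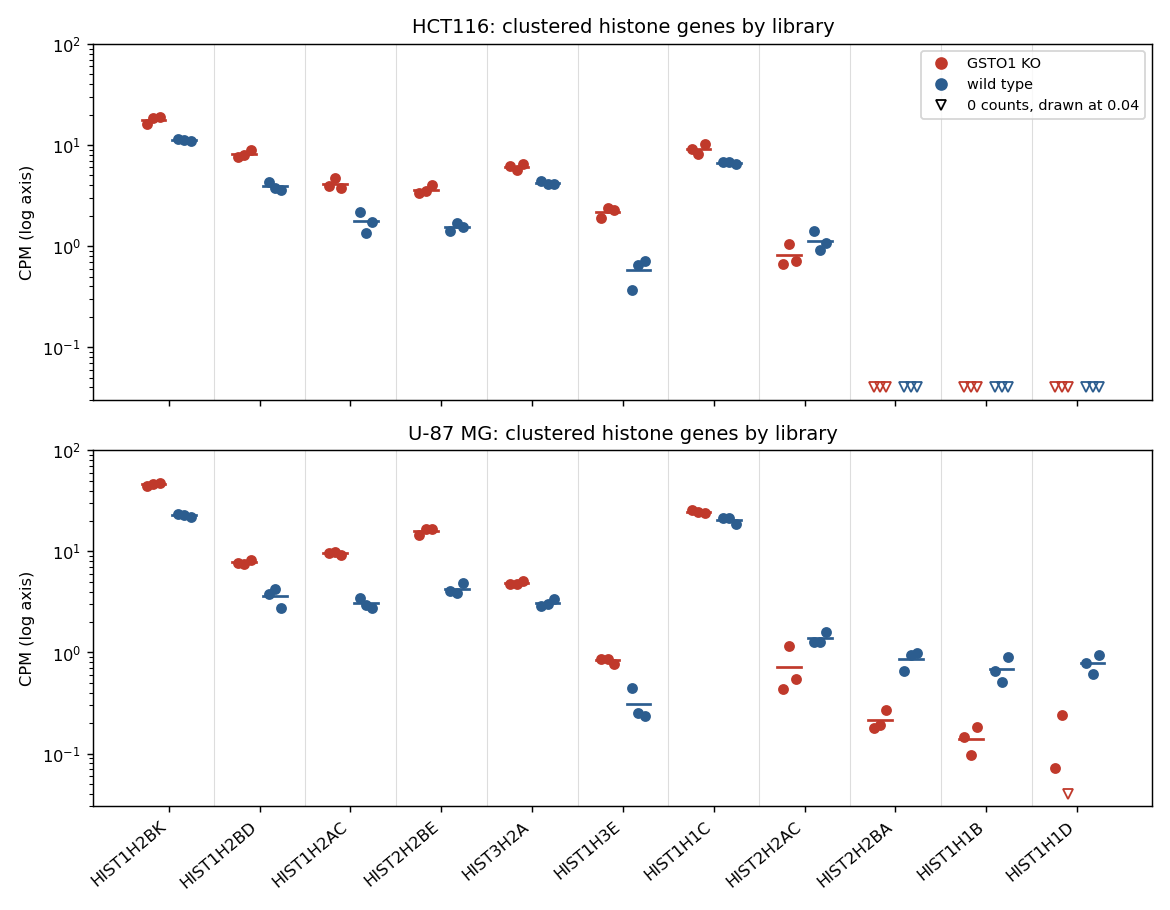
Level of 11 clustered histone genes in each library (vertical axis, CPM scaled by TMM, log axis) in HCT116 (top) and U-87 MG (bottom), with GSTO1 KO libraries in red left of WT libraries in blue and the group mean as a bar. Open triangles mark libraries with 0 counts, drawn at 0.04. HIST2H2BA, HIST1H1B and HIST1H1D had no count in HCT116 and lay lower in KO than in WT libraries of U-87 MG.

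A call required an adjusted p under 0.05 (edgeR, all genes tested), a fold above 1.5 and a mean above 0.5 FPKM over the 6 libraries of the line. Enough reads for the test were present for 16 members in HCT116 and 20 in U-87 MG. The other described members, 14 in HCT116 with summed counts of 20 to 61 and 20 in U-87 MG with 20 to 53, had too few reads for it and are given as reads. In HCT116, 6 of the 16 tested members were called, 5 higher and 1 lower, where 11.9% of all 14068 genes tested were called (7.82% higher, 4.07% lower). In U-87 MG, 9 of 20 were called, 5 higher and 4 lower, where 16.2% of all 13741 genes were called (8.06% higher, 8.15% lower). A low gene enters the test only if one group has reads, so these counts describe the members tested and not the 73. All KO libraries lay above all WT libraries for 8 of the 16 tested members in HCT116 and below them for 1, beside 31.2% and 30.4% of all genes. In U-87 MG they lay above for 7 of 20 and below for 4, beside 31.8% and 32.2% of all genes. The median log2 fold change, KO over WT, was 0.50 for the tested members in HCT116 and 0.15 in U-87 MG, beside 0.01 for all genes in each line. In bulk RNA, fewer cells that make a transcript and less of it per cell cannot be told apart.

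The H2B genes HIST2H2BE, HIST1H2BD and HIST1H2BK, which encode a core histone that pairs with H2A, were higher in KO cells of both lines. HIST2H2BE (current symbol H2BC21) had 3.35, 3.48 and 4.01 CPM in HCT116 KO libraries, against 1.40, 1.70 and 1.56 CPM in HCT116 WT libraries. Its U-87 MG levels were 14.5, 16.5 and 16.7 CPM in KO libraries, against 4.10, 3.88 and 4.83 CPM in WT libraries. Every KO library lay above every WT library of its line. The log2 fold change was 1.22 (SE 0.18, adjusted p = 1.11e-05) in HCT116 and 1.90 (SE 0.11, adjusted p = 3.04e-12) in U-87 MG.

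HIST1H2BD had 7.59, 7.95 and 8.95 CPM in HCT116 KO libraries, against 4.32, 3.78 and 3.63 CPM in HCT116 WT libraries. Its values in U-87 MG were 7.762, 7.499 and 8.135 CPM in KO libraries, against 3.79, 4.24 and 2.74 CPM in WT libraries. The groups did not overlap, and the log2 fold changes were close, at 1.07 (SE 0.13, adjusted p = 5.56e-07) and 1.10 (SE 0.15, adjusted p = 9.32e-07). HIST1H2BK, the member with the most reads, had 16.2, 18.3 and 19.0 CPM in HCT116 KO libraries, against 11.5, 11.2 and 10.9 CPM in HCT116 WT libraries. Its U-87 MG values were 44.1, 46.3 and 47.9 CPM in KO libraries, against 23.4, 22.7 and 22.0 CPM in WT libraries. The groups again did not overlap. Its log2 fold change was 0.68 (SE 0.09, adjusted p = 1.60e-06) in HCT116, close to the fold threshold, and 1.02 (SE 0.07, adjusted p = 8.62e-12) in U-87 MG. On the FPKM scale the HCT116 value was 0.47 with an adjusted p of 3.93e-04, below the fold threshold. Only 42.8% of the 50-base stretches of HIST1H2BK occur once in the genome, so reads from other copies can bear on its level.

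The other tested H2B genes did not pass on counts. In HCT116 the log2 fold changes were 0.07 (SE 0.26) for HIST1H2BC, 0.42 (SE 0.39) for HIST1H2BN and 0.74 (SE 0.45) for the pseudogene HIST2H2BC. In U-87 MG they were 0.19 (SE 0.28) for HIST1H2BC, 0.50 (SE 0.29) for HIST1H2BJ, −0.34 (SE 0.43) for HIST1H2BG and −0.67 (SE 0.33, adjusted p = 0.0825) for HIST1H2BH. HIST2H2BA, an H2B pseudogene near the centromere of chromosome 1, was the one H2B entry called lower in U-87 MG KO cells. It had 0.181, 0.192 and 0.273 CPM in KO libraries, against 0.661, 0.943 and 0.993 CPM in WT libraries, from 15 reads in the KO and 62 in the WT group. Only the WT libraries brought it into the test, so a call could only be lower. The log2 fold change was −1.999 (SE 0.44, adjusted p = 3.80e-04), and 26.2% of its 50-base stretches are unique. Summed over all 20 H2B genes, the level was 33.9 ± 2.34 CPM in HCT116 KO and 20.1 ± 0.568 CPM in HCT116 WT cells. In U-87 MG it was 76.0 ± 3.36 CPM in KO and 36.8 ± 1.07 CPM in WT cells (SD, n = 3 each).

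Among H2A genes, HIST1H2AC was higher in KO cells of both lines. It had 3.96, 4.74 and 3.72 CPM in HCT116 KO libraries, against 2.18, 1.35 and 1.75 CPM in HCT116 WT libraries. In U-87 MG it had 9.64, 9.81 and 9.27 CPM in KO libraries, against 3.48, 2.97 and 2.74 CPM in WT libraries. No KO library overlapped the WT libraries. The log2 fold change was 1.23 (SE 0.19, adjusted p = 1.75e-05) in HCT116 and 1.64 (SE 0.13, adjusted p = 3.28e-10) in U-87 MG.

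HIST3H2A, from the small cluster on the long arm of chromosome 1, had 6.19, 5.69 and 6.44 CPM in HCT116 KO libraries, against 4.44, 4.08 and 4.10 CPM in HCT116 WT libraries. Its U-87 MG values were 4.80, 4.76 and 5.09 CPM in KO libraries, against 2.91, 3.05 and 3.36 CPM in WT libraries. The groups did not overlap in either line. The log2 fold change of 0.66 (SE 0.15, adjusted p = 6.56e-04) was called in U-87 MG, and that of 0.54 (SE 0.13, adjusted p = 0.00124) in HCT116 was below the fold threshold.

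A pair of H2A genes were called lower, each in 1 line and each with few reads. HIST2H2AC had 0.433, 1.15 and 0.545 CPM in U-87 MG KO libraries, against 1.28, 1.27 and 1.61 CPM in U-87 MG WT libraries. Its log2 fold change there was −0.996 (SE 0.34, adjusted p = 0.0145), and the call was lost without KO replicate 1 (−0.70, adjusted p = 0.115), without KO replicate 3 (−0.86, adjusted p = 0.0699) with DESeq2 (−0.98, adjusted p = 0.0559) and on both FPKM scales (adjusted p = 0.0992 and 0.101). In HCT116 it had 0.670, 1.05 and 0.711 CPM in KO and 1.40, 0.925 and 1.08 CPM in WT libraries, which overlapped (log2 fold change −0.49, SE 0.30, adjusted p = 0.169). HIST1H2AJ had 5, 9 and 6 reads in HCT116 KO libraries, against 16, 15 and 16 reads in HCT116 WT libraries. It entered the test through the WT libraries, and only 33.7% of its 50-base stretches occur once in the genome, so reads of other copies can bear on it. Its log2 fold change of −0.99 (SE 0.41, adjusted p = 0.0413) lost the call with DESeq2 (adjusted p = 0.17), with no filter on low counts (0.0669), in 1 fit of all libraries (0.06), on both FPKM scales and when any library other than KO replicate 2 was left out (adjusted p of 0.0595 to 0.155).

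H3 and H4 genes were near the limit of the data. HIST1H3E, which encodes a replication-dependent H3, had 1.90, 2.37 and 2.26 CPM in HCT116 KO libraries, against 0.370, 0.655 and 0.708 CPM in HCT116 WT libraries. This was the highest log2 fold change of a tested member in HCT116, at 1.92 (SE 0.27, adjusted p = 5.91e-06). In U-87 MG it had 0.866, 0.865 and 0.773 CPM in KO libraries, against 0.440, 0.254 and 0.236 CPM in WT libraries. There the groups did not overlap either, and the log2 fold change was 1.42 (SE 0.40, adjusted p = 0.00391), but the mean of 0.420 FPKM was below the level a call required. The H3 sum was 3.70 ± 0.315 CPM in HCT116 KO and 1.70 ± 0.476 CPM in HCT116 WT cells, most of it HIST1H3E in the KO cells. In U-87 MG the H3 sum was 2.79 ± 0.300 CPM in KO and 2.64 ± 0.637 CPM in WT cells. Of the 15 H4 genes, which encode the partner of H3, 1 was tested in each line and none was called. HIST1H4E had a log2 fold change of −0.37 (SE 0.40) in HCT116, and HIST1H4H one of 0.79 (SE 0.55) in U-87 MG.

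Members below the test are given by their reads, summed over the 3 libraries of a group. In U-87 MG the widest contrast was in HIST1H2BL, an H2B gene, with 0, 1 and 0 reads in KO libraries, against 7, 7 and 8 reads in WT libraries. All its WT libraries lay above all its KO libraries, and in HCT116 it had 6 reads in KO and 8 in WT libraries. HIST3H2BB ran the other way in U-87 MG, with 9, 9 and 6 reads in KO libraries, against 3, 0 and 1 in WT libraries. By reads unscaled for depth, these were the untested described members whose groups did not overlap in U-87 MG. In HCT116 they were HIST1H4C, with 0, 2 and 3 reads in KO and 7, 4 and 4 in WT libraries, and HIST1H4D, with 3, 0 and 7 reads in KO and 9, 9 and 11 in WT libraries.

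The others overlapped in their reads. Scaled to CPM, all U-87 MG KO libraries lay below all WT libraries for HIST1H1E and HIST1H2AM as well, and above them for HIST1H2BN. Of all genes tested, 31.8% lay above and 32.2% below without overlap in U-87 MG, and 31.2% and 30.4% in HCT116. Of H2A genes in HCT116, HIST1H2AH had 15 reads in KO and 8 in WT cells, HIST1H2AI 11 in KO and 19 in WT cells, and HIST1H2AK 18 in KO and 16 in WT cells. Of H2A genes in U-87 MG, HIST1H2AI had 21 in KO and 26 in WT cells, HIST1H2AJ 11 in KO and 23 in WT cells, HIST1H2AK 14 in KO and 21 in WT cells, HIST1H2AL 24 in KO and 21 in WT cells, and HIST1H2AM 18 in KO and 35 in WT cells. H2B genes in HCT116 gave 14 reads in KO and 14 in WT cells for HIST1H2BF, 24 in KO and 25 in WT cells for HIST1H2BJ, 24 in KO and 29 in WT cells for HIST2H2BF, and 32 in KO and 18 in WT cells for HIST3H2BB. The U-87 MG libraries gave 13 in KO and 12 in WT cells for HIST1H2BF, 22 in KO and 14 in WT cells for HIST1H2BN, 17 in KO and 10 in WT cells for HIST1H2BO, 24 in KO and 12 in WT cells for HIST2H2BC, and 27 in KO and 16 in WT cells for HIST2H2BF. The H3 genes gave in HCT116 20 reads in KO and 11 in WT cells for HIST1H3A, 20 in KO and 13 in WT cells for HIST1H3D, 32 in KO and 29 in WT cells for HIST1H3H, and 15 in KO and 12 in WT cells for HIST1H3J. In U-87 MG the H3 genes gave 14 in KO and 12 in WT cells for HIST1H3A, 8 in KO and 20 in WT cells for HIST1H3B, 24 in KO and 18 in WT cells for HIST1H3G, and 21 in KO and 15 in WT cells for HIST1H3H. Of H4 genes, HIST1H4K had 12 in KO and 9 in WT cells of HCT116. In U-87 MG HIST1H4D had 23 in KO and 19 in WT cells, HIST1H4E 8 in KO and 12 in WT cells, and HIST4H4 28 in KO and 15 in WT cells. The linker histone HIST1H1E had 13 in KO and 35 in WT cells of U-87 MG.

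Linker histones bind DNA where it enters and leaves the nucleosome, and those of the clusters were called only where rare. HIST1H1C, the second most abundant member, had 9.04, 8.16 and 10.3 CPM in HCT116 KO libraries, against 6.87, 6.78 and 6.46 CPM in HCT116 WT libraries. Its levels in U-87 MG were 25.5, 24.7 and 23.9 CPM in KO libraries, against 21.4, 21.3 and 18.5 CPM in WT libraries. The groups did not overlap, but the log2 fold changes of 0.46 (SE 0.11, adjusted p = 0.00163) and 0.27 (SE 0.08, adjusted p = 0.00411) were below the fold threshold.

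HIST1H1D and HIST1H1B, both rare, were lower in U-87 MG KO cells. Only the WT libraries brought them into the test, so a call could only be lower. HIST1H1D had 2, 5 and 0 reads in the KO libraries, against 18, 17 and 20 reads in the WT libraries. HIST1H1B had 4, 2 and 4 reads in the KO libraries, against 15, 14 and 19 reads in the WT libraries. The log2 fold changes were −2.89 (SE 0.60, adjusted p = 2.21e-04) for HIST1H1D and −2.21 (SE 0.52, adjusted p = 7.43e-04) for HIST1H1B, and all WT libraries lay above all KO libraries. Without KO replicate 2 the value of HIST1H1D was −4.11 (adjusted p = 1.75e-04). Neither gene had a read in HCT116. HIST1H1E had a log2 fold change of −0.13 (SE 0.39) in HCT116 and was too low for the test in U-87 MG.

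**Figure D2:**
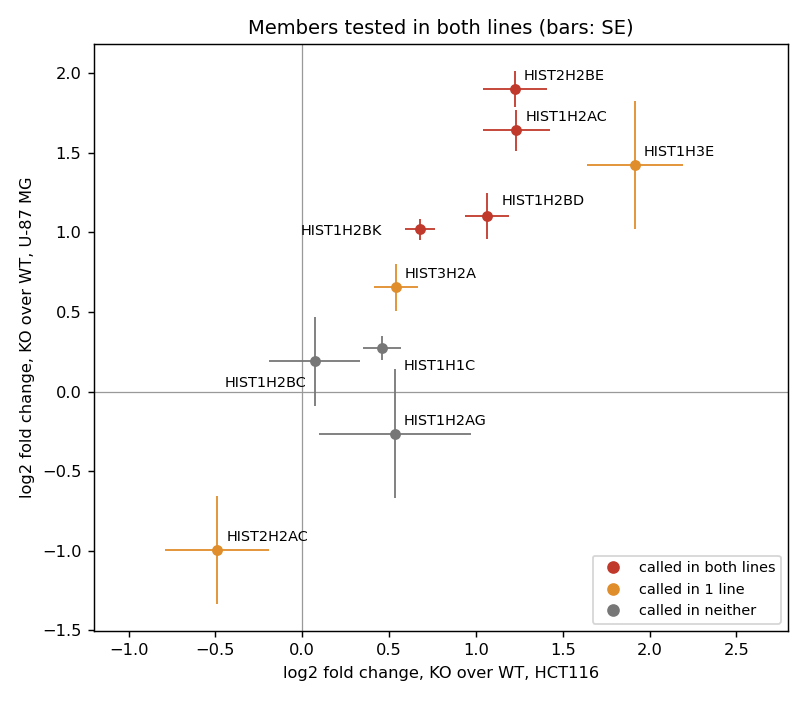
Log2 fold change, GSTO1 KO over WT, in HCT116 (horizontal axis) and U-87 MG (vertical axis) for the 10 members tested in both lines, with bars of 1 SE and colour by call. HIST2H2BE, HIST1H2AC, HIST1H2BD and HIST1H2BK were called higher in both lines, and HIST2H2AC lay below 0 in both.

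Set side by side, 10 members were tested in both lines and 9 had the same sign, 8 positive and 1 negative, as the plot of fold changes in both lines shows. The exception was HIST1H2AG, at 0.53 (SE 0.44) in HCT116 and −0.27 (SE 0.41) in U-87 MG. The lines share no libraries. The shares of all genes with the same sign, or called higher, in both lines are not given here, so these counts have no background. Whether a member responded differently in the lines was tested in 1 fit of all 12 libraries, where 16.9% of 15613 genes were called (9.66% in the positive and 7.24% in the negative direction). Of 27 members in that fit, 19 had an estimate and 1 was called. HIST2H2BE responded less in HCT116 than in U-87 MG, by −0.67 (SE 0.22, adjusted p = 0.0144), and the call was lost without HCT116 WT replicate 2 (−0.59, adjusted p = 0.0657). HIST1H2BK had a difference of −0.33 (SE 0.11, adjusted p = 0.0141), below the fold threshold. The difference was −0.40 (SE 0.23, adjusted p = 0.181) for HIST1H2AC and −0.03 (SE 0.20, adjusted p = 0.985) for HIST1H2BD. HCT116 was sequenced in single reads and U-87 MG in pairs, so levels between the lines cannot be told apart from the read layout.

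Sums were higher in KO cells of both lines for members with a longer, polyadenylated 3′ end in the annotation and for those without one. Only without HIST1H2BK and HIST1H1C did the latter sum to less in U-87 MG KO cells. This split, and leaving those genes out, was made after the values were seen and carries no test. The 15 members with such an end summed to 27.4 ± 1.42 CPM in HCT116 KO and 14.7 ± 0.635 CPM in HCT116 WT cells, a ratio of 1.87. In U-87 MG they summed to 43.3 ± 1.36 CPM in KO and 17.4 ± 0.555 CPM in WT cells, a ratio of 2.49 (SD, n = 3 each). All 7 of them that were tested in HCT116 and all 8 tested in U-87 MG had a positive log2 fold change, and 4 were called higher in each line. These were HIST2H2BE, HIST1H2AC and HIST1H2BD in both lines, with HIST1H3E in HCT116 and HIST3H2A in U-87 MG. Of all genes tested, 7.82% in HCT116 and 8.06% in U-87 MG were called higher, and their median log2 fold change was 0.01 in each line.

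The 55 coding members without such an end summed to 34.4 ± 1.97 CPM in HCT116 KO and 26.0 ± 0.573 CPM in HCT116 WT cells. In U-87 MG they summed to 79.5 ± 1.69 CPM in KO and 56.0 ± 2.77 CPM in WT cells. HIST1H2BK and HIST1H1C held most of both sums, although the annotation gives neither a longer end. The remaining 53 summed to 7.33 ± 0.538 CPM in HCT116 KO and 8.09 ± 0.689 CPM in HCT116 WT cells, which overlapped. In U-87 MG these 53 summed to 8.71 ± 0.540 CPM in KO and 12.9 ± 0.679 CPM in WT cells, a ratio of 0.677 with no overlap. Every member called lower in either line, apart from the pseudogene HIST2H2BA, was among these 53. The gene models behind the deposited counts and FPKM may differ from the annotation used for the split. In HCT116, counts per kilobase of annotated exon gave 29.3 CPM for HIST1H2BK and 0.379 CPM for HIST1H2BC, which has a longer end. Their mean levels were 19.3 and 2.51 FPKM. The values were close for HIST1H1C (10.86 CPM and 10.98 FPKM) and HIST1H2BD (7.01 CPM and 7.78 FPKM). Whether the counted models follow the split was not tested.

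**Figure D3:**
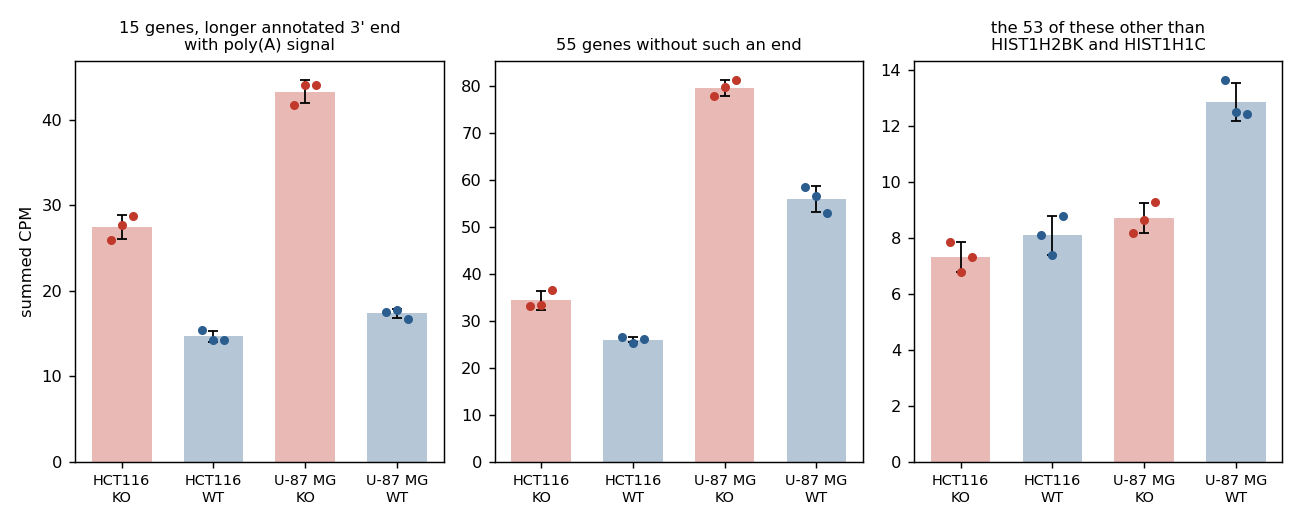
Summed level per library (vertical axis, CPM scaled by TMM) of 15 members with a longer annotated 3′ end and poly(A) signal, of 55 without, and of 53 of these without HIST1H2BK and HIST1H1C. Bars are group means, error bars SD (n = 3), points libraries, KO in red left of WT in blue. The sums of the 15 and of the 55 were higher in KO cells of both lines, and that of the 53 was lower in KO cells of U-87 MG.

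RNAs known to lack a poly(A) tail were set beside the histone values. The RNAs RMRP, RPPH1, TERC, RN7SK, RN7SL1 and RN7SL2, listed after the values were seen, summed to 22.4 to 30.2 CPM in HCT116 KO and 18.0 to 22.2 CPM in HCT116 WT libraries. In U-87 MG they summed to 33.9 to 44.2 CPM in KO and 35.4 to 51.0 CPM in WT libraries. Of the 5 tested in each line, RN7SK was called higher in both (0.69, SE 0.22, adjusted p = 0.0126 in HCT116, and 0.86, SE 0.18, adjusted p = 3.35e-04 in U-87 MG). RMRP was also higher in U-87 MG (0.95, SE 0.34, adjusted p = 0.0184). The part of these RNAs, and of the RNR2 share given above, in the histone results was not tested.

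Many histone genes sit in pairs that are read in opposite directions from a short shared stretch. The annotation held 15 pairs of members that start 170 to 979 bases apart and face away from each other. HIST1H2BO was counted with HIST1H2AM and again with HIST1H3J. In the pairs of HIST2H2BE and HIST1H2AC one partner was called higher in both lines and the other was not. HIST2H2BE and HIST2H2AC start 236 bases apart. Their log2 fold changes were 1.22 and −0.49 in HCT116, and 1.90 and −0.996 in U-87 MG. The U-87 MG call of HIST2H2AC was lost in the alternative runs given above. HIST1H2AC and HIST1H2BC start 219 bases apart and had 1.23 and 0.07 in HCT116, and 1.64 and 0.19 in U-87 MG. In each pair the partners' difference was not itself tested. HIST1H2BJ and HIST1H2AG, 248 bases apart, had 0.50 and −0.27 in U-87 MG, and HIST1H2BG and HIST1H2AE, 233 bases apart, had −0.34 and −0.21, none of them called. Of HIST1H2BC's exon bases 30.9% lie opposite another gene, HFE among them, and the labels do not give the strand setting of the counting. HIST1H2BK and HIST1H2AH start 251 bases apart, and HIST1H2AH was too low for the test, with 23 reads in all HCT116 and 10 in all U-87 MG libraries.

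**Figure D4:**
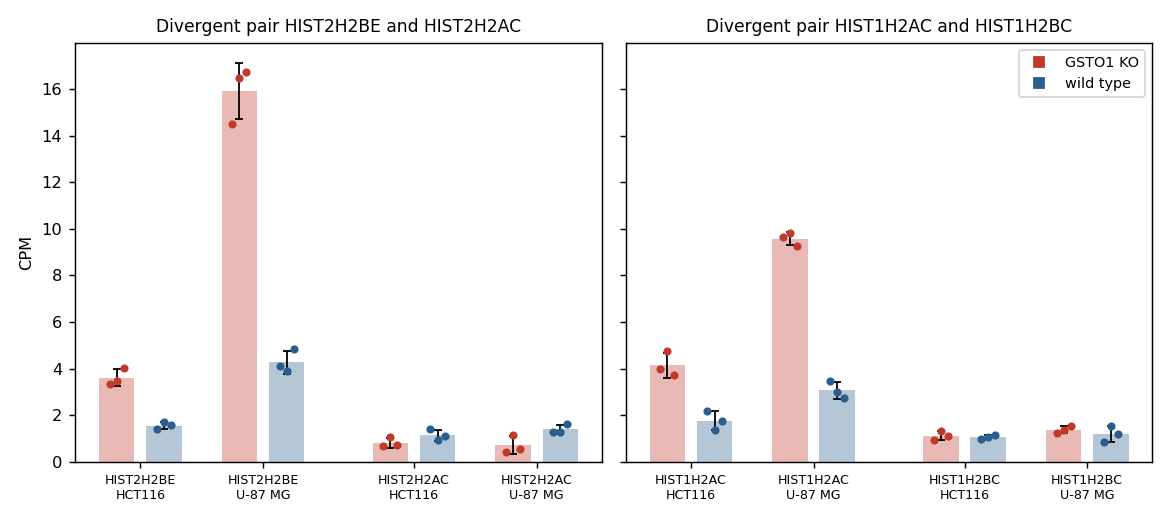
Level per library (vertical axis, CPM scaled by TMM) of the divergent pairs HIST2H2BE with HIST2H2AC and HIST1H2AC with HIST1H2BC in both lines. Bars are means, error bars SD (n = 3), KO in red left of WT in blue. HIST2H2BE and HIST1H2AC were higher in KO cells of both lines, and HIST2H2AC and HIST1H2BC stayed below 2 CPM in every library.

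Promoters are printed for 3 members with opposite changes: HIST2H2BE and HIST1H2AC, higher in KO cells of both lines, and HIST1H1D, lower in U-87 MG KO cells. The sequences run from 250 bases before to 50 bases after the start site and are from RefSeq on GRCh38.p14, chr1:149886633-149886932 (minus strand), chr6:26123922-26124221 (plus) and chr6:26234938-26235237 (minus). The first also holds the annotated start of HIST2H2AC. Capitals mark matches on either strand to the octamer ATTTGCAT (bound by POU2F1), to CCAAT and to TATAAA.
HIST2H2BE: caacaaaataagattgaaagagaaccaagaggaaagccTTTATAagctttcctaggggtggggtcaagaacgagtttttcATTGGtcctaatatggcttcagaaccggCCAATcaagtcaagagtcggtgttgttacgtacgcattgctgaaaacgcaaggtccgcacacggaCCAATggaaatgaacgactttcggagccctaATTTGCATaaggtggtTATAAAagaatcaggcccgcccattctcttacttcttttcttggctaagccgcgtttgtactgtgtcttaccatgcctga
HIST1H2AC: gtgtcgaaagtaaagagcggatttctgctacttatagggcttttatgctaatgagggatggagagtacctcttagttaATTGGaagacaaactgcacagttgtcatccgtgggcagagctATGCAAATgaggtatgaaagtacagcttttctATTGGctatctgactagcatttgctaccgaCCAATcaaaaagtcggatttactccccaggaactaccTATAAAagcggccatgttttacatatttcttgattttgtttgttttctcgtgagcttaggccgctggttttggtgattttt
HIST1H1D: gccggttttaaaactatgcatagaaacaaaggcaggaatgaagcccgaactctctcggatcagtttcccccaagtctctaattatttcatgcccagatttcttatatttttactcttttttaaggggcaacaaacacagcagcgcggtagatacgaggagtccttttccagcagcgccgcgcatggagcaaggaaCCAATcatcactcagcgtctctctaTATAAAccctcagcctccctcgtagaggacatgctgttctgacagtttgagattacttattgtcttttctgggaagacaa
The octamer stood in 26 of the 65 member promoters in the table (40%), against 1.77% of all 35116 promoters. By class it stood in 68.8% of H2A and 77.8% of H2B promoters and in no H1 or H4 promoter. CCAAT stood in 84.6% of member promoters against 34.6% of all, and TATAAA in 66.2% against 11.5%. Matches of different motifs may overlap, and each promoter was counted once per motif. HIST2H2BE, HIST1H2AC and HIST1H2BK, which were higher in KO cells, held all 3 motifs, and so did HIST2H2AC, which was lower. HIST1H2BD and HIST1H3E, also higher, held no octamer, nor did HIST1H1D.

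Several members exist in near-identical copies, which bears on what the counts can show. Of the 73 members, 6 had no 50-base stretch that occurs once in the genome (HIST2H2AA3, HIST2H2AA4, HIST2H3A, HIST2H3C, HIST2H4A and HIST2H4B), and all 6 had 0 counts. The FPKM values, made with another tool, did assign reads to some of them. HIST2H2AA4, an H2A gene, had 31.7, 35.3 and 33.2 FPKM in U-87 MG KO libraries, against 11.1, 11.1 and 10.3 FPKM in U-87 MG WT libraries. The groups did not overlap, and limma on log2(FPKM + 1) gave a difference of 1.54 (SE 0.05, adjusted p = 2.41e-07), where 6.44% of 12281 genes were called higher and 6.64% lower on that scale. In HCT116 it had 3.54, 2.83 and 4.12 FPKM in KO libraries, against 2.31, 2.52 and 2.78 FPKM in WT libraries. There the difference was 0.34 (SE 0.10, adjusted p = 0.0198), below the fold threshold, on a scale where 8.56% of 12485 genes were called (4.54% higher, 4.02% lower). HIST2H2AA3 had no FPKM row, so the value may hold reads of both copies.

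Other low members were called on the FPKM scale but not on counts in the edgeR fit. HIST3H2BB, the divergent partner of HIST3H2A, had 0.869, 1.67 and 1.55 FPKM in HCT116 KO libraries, against 0.819, 0.633 and 0.150 FPKM in HCT116 WT libraries. In U-87 MG it had 1.06, 1.44 and 0.833 FPKM in KO libraries, against 0.481, 0 and 0 FPKM in WT libraries. The limma difference was 0.63 (SE 0.19, adjusted p = 0.0231) in HCT116 and 0.88 (SE 0.17, adjusted p = 0.00274) in U-87 MG. Too low for the edgeR filter, it was also called on counts in U-87 MG with DESeq2 and with no filter, and in HCT116 without KO replicate 1. HIST1H2BJ, tested but not called on counts in U-87 MG, had 1.76, 2.24 and 1.63 FPKM in KO libraries there, against 0.999, 0.810 and 0.895 FPKM in WT libraries, and a limma difference of 0.59 (SE 0.09, adjusted p = 6.54e-04). HIST1H4J and HIST1H4K, of which 7.941% and 7.396% of 50-base stretches are unique, were lower on that scale in U-87 MG KO cells by −0.80 (SE 0.14, adjusted p = 0.00141) and −0.72 (SE 0.16, adjusted p = 0.00545). Their FPKM values in the U-87 MG KO libraries were 0.553, 0.762 and 0.695, and 0.561, 0.773 and 0.704, so both may hold the same reads. On counts HIST1H4J had 4 reads in KO and 6 in WT cells of U-87 MG, and HIST1H4K 0 and 1. HIST2H4A and HIST2H4B had overlapping groups in both lines.

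**Figure D5:**
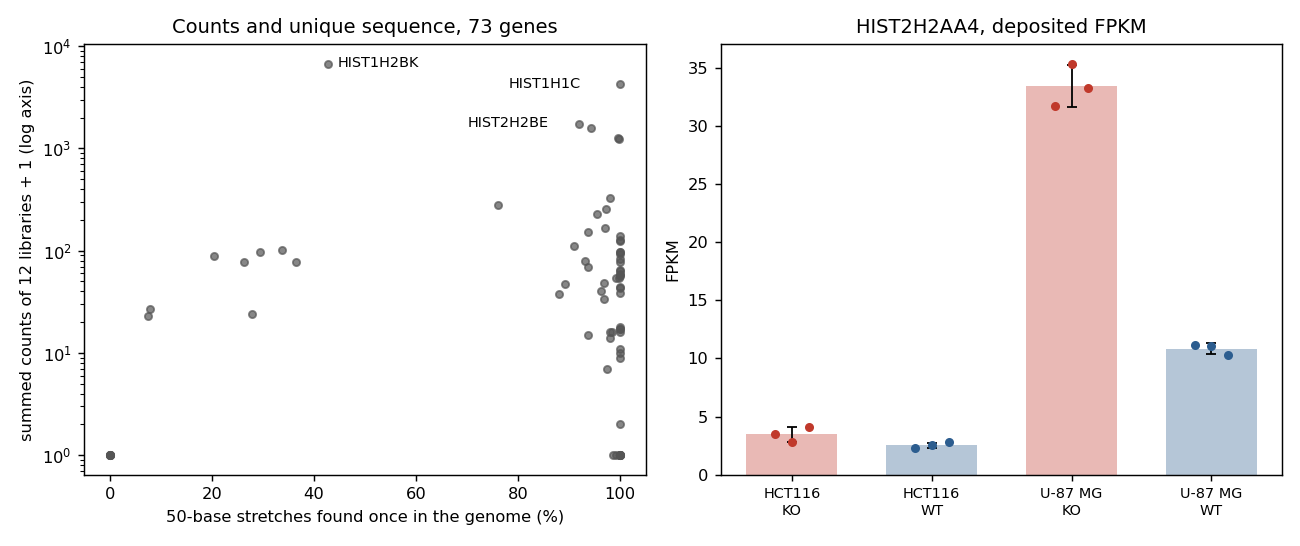
Left, summed counts of the 12 libraries plus 1 (log axis) against the percent of 50-base stretches found once in the genome for the 73 members. Right, deposited FPKM of HIST2H2AA4 per library, with group means, SD (n = 3) and KO in red left of WT in blue. Members with no unique stretch had no counts, and HIST2H2AA4 reached 31.7 to 35.3 FPKM in U-87 MG KO cells.

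Genes of the machinery that makes, ends and places histones were described from fixed lists. Of all genes tested, 7.82% were called higher and 4.07% lower in HCT116, and 8.06% and 8.15% in U-87 MG. Of 17 genes for 3′ end formation and decay of histone mRNA, none was higher and SNRPG was lower in HCT116 KO cells (−0.59, SE 0.05, adjusted p = 1.50e-09). SNRPG encodes an Sm protein shared by the spliceosome and the U7 particle that cuts histone mRNA. In U-87 MG KO cells MIF4GD, a partner of SLBP, was higher at 9.83 ± 1.10 CPM in KO and 5.92 ± 0.498 CPM in WT cells. SNRPD3, another Sm protein, was lower at 65.6 ± 2.26 CPM in KO and 119 ± 5.12 CPM in WT cells, and so was CPSF2, a subunit of the cleavage complex, at 134 ± 5.49 CPM in KO and 203 ± 5.14 CPM in WT cells. The list had a median log2 fold change of −0.36 in HCT116 and −0.21 in U-87 MG, beside 0.01 for all genes.

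Of 8 genes for histone gene transcription none was called in HCT116, where the list's median was −0.15. In U-87 MG, with a list median of −0.08, POU2F1, which encodes the octamer-binding factor OCT1, was the one called, at 43.8 ± 1.50 CPM in KO and 27.4 ± 1.11 CPM in WT cells (0.68, SE 0.06, adjusted p = 6.04e-09). Of 18 histone chaperones and importers none was called in HCT116 (median −0.24) and 4 were lower in U-87 MG (median −0.29). These were the importin IPO4 (−1.53, SE 0.05), HIRA (−1.14, SE 0.06) and its partner CABIN1 (−1.06, SE 0.05), which place histone H3 variants outside replication, and the FACT subunit SSRP1 (−0.64, SE 0.04).

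Of 12 variant histone genes outside the clusters, 11 were tested in HCT116 and 9 in U-87 MG. CENPA, the centromeric H3, was lower in HCT116 KO cells (−0.77, SE 0.08, adjusted p = 5.10e-08). In U-87 MG H2AFJ, an H2A variant, was higher at 26.1 ± 2.83 CPM in KO and 8.45 ± 0.975 CPM in WT cells (1.62, SE 0.10, adjusted p = 8.99e-12), and the linker histone H1F0 was lower at 19.3 ± 1.85 CPM in KO and 37.8 ± 1.33 CPM in WT cells. The medians were −0.09 in HCT116 and −0.06 in U-87 MG. Among all genes tested, 4.07% were called lower in HCT116 and 8.15% in U-87 MG. Of 30 genes of DNA replication and S phase, 3 were lower and none higher in each line. They were RRM2, RFC5 and GINS1 in HCT116 and MCM5, CDC45 and RFC2 in U-87 MG, with list medians of −0.33 and −0.39. The S-phase sum was 5021 to 5054 CPM in HCT116 KO and 6172 to 6220 CPM in HCT116 WT libraries, and 3586 to 3605 CPM in U-87 MG KO and 4535 to 4810 CPM in U-87 MG WT libraries. The part of these lists in the histone values was not tested.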

How the data were processed

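RNA was measured in 12 libraries of 2 cell lines, 3 per group, with RNA integrity numbers of 8 or more, per the labels' protocols. Per gene, the deposited counts give whole reads, made by the authors with featureCounts 1.6.1 after alignment to GRCh38 with STAR 2.5.2, per the submitters' processing notes. For the deposited FPKM values the authors used Cufflinks 2.2.1, per the same notes. Not given in the sources used here are the strand setting, the handling of reads with several alignments and the counting of pairs. In the FPKM files 1 row with no gene name was left out.

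Here, counts were fitted with edgeR 4.0.16 in R 4.3.3 (quasi-likelihood test, robust, TMM, filterByExpr, Benjamini-Hochberg over all genes tested) within each line, and in 1 fit of all libraries for the difference between the lines. CPM of single genes are scaled by TMM, and the members' share of counts is not. limma 3.58.1 on log2(FPKM + 1) and DESeq2 1.42.0 were alternatives, with other factors, no filter, a replicate block and each library left out. Thresholds follow the design text. The edgeR fits were also run on counts simulated from edgeR's own model. Such a run cannot check that model, and its outcome is not given here. Values in every library are given for members called in a comparison and the 5 with the highest mean FPKM per line, and at most 4 called genes are named per other list. HIST1H3E in U-87 MG, HIST3H2BB, HIST1H2BL, HIST1H2BJ, HIST1H4C, HIST1H4D, HIST1H4J, HIST1H4K and the RNAs without a tail were added after their values were seen. The members and lists were chosen with earlier results of these data known.

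Replicates within a group differed by 1.48 to 9.31 chi-square units per degree of freedom, so none was a duplicate. Annotation was GENCODE 44. All 73 members were matched.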

Additional observations from a re-analysis of the deposited data

Results flagged for a closer look

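HIST2H2BE, an H2B gene, responded differently in the cell lines. Its log2 fold change, KO over WT, was 1.22 in HCT116 and 1.90 in U-87 MG, and the test of the difference between the lines gave −0.67 (HCT116 minus U-87 MG, SE 0.22, adjusted p = 0.0144 by edgeR). All 3 KO libraries lay above all 3 WT libraries in both lines. Without HCT116 WT replicate 2 the difference was −0.59 with an adjusted p of 0.0657.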

How the results depend on the processing

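The 4 members called higher in both lines kept their direction under every alternative run, and HIST2H2BE, HIST1H2AC, HIST1H2BD and HIST1H2BK kept their calls in U-87 MG. In HCT116 HIST1H2BK fell below the fold threshold on both FPKM scales and HIST2H2BE on log2(FPKM + 1), at 0.56. No named value for which the alternatives were run, those of called members, HIST1H1C and the difference between lines, changed sign. Of members not called, HIST1H2BC in HCT116 had −0.21 and HIST1H2BG in U-87 MG 0.17 on log2(FPKM + 1), against 0.07 and −0.34 on counts. Leaving out each library in turn gave 5 to 6 called members in HCT116, 8 to 10 in U-87 MG and 0 to 2 for the difference between lines, and 1660 to 1742, 2212 to 2274 and 2572 to 2692 genes over the whole tables. The 0 arose without HCT116 WT replicate 2, and the 2 without HCT116 KO replicate 3 (adding HIST1H4D) or U-87 MG KO replicate 1 (adding HIST1H1E). limma on log2(FPKM + 1) called 1069 genes in HCT116 where edgeR called 1672, and 13 members in U-87 MG where edgeR called 9; the cause was not tested. The replicate block left 6, 9 and 1 called members, the same genes as without it. Libraries with the same number were at most weakly correlated, at 0.0261, 0.0170 and 0.135 in HCT116 and 0.0249, 0.00128 and −0.00964 in U-87 MG. HCT116 pairs of different number ran from −0.0922 to 0.0779, below the value of replicate 3. Whether the HCT116 replicate 3 libraries share a batch was not tested. The log2 fold change of HIST1H1D ranged from −4.11 (without U-87 MG KO replicate 2) to −0.94 and that of HIST1H1B from −2.41 to −0.73, the last of each being log2(FPKM + 1), where the pseudocount is above the genes' mean FPKM; with a pseudocount of 0.1 they were −2.64 and −1.83. HIST1H3E in HCT116 was 1.07 on log2(FPKM + 1). These genes rest on few reads.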

Other observations

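HCT116 libraries had no count for a run of neighbouring histone genes on the short arm of chromosome 6, a pattern noticed after the values were seen. Between HIST1H2BG and HIST1H2BI, at chr6:26216200-26273412 of GRCh38, the annotation places 10 members, and 9 of them had no count in any of the 6 HCT116 libraries. Of these 9, 7 had counts in U-87 MG, among them 125 for HIST1H2BH, 123 for HIST1H2AE, 76 for HIST1H2BG, 62 for HIST1H1D and 42 for HIST1H3G, and the other 2 had none in either line. The exception was HIST1H3E, in the middle of the run, with 174 counts in HCT116 and 81 in U-87 MG. Outside the run, HIST1H3C, HIST1H1B, HIST2H2BA and HIST1H1A had no count in HCT116 either, against 64, 58, 77 and 9 in U-87 MG. A count of 0 allows up to 0.115 to 0.168 CPM per HCT116 library, counting error only. In all, 11 members had no count in HCT116 but some in U-87 MG, and 1 had the reverse. KO and WT libraries of HCT116 did not differ in this, and the read layout of the lines differed.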
